A study of Mus musculus and Acomys cahirinus with 84 samples.

Results

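Primary skin fibroblasts from C56BL6 mice were compared between untreated cultures labelled passaged and untreated cultures without that label, all collected at 12 d. The comparison rests on 8 of the 84 RNA sequencing libraries of the series, 4 passaged and 4 of the plain untreated group, which is called kept here. They were chosen by their labels, and a passaged and a kept library with the same replicate number form a pair. All 8 cultures received 0 Gy, belonged to the batch labelled B2 and were taken from 4 animals, 1 code per pair in the library names. The other groups of the series were irradiated cultures, 24 h cultures, and the same design in wild mice and in the African spiny mouse Acomys cahirinus. The labels give no strain detail beyond the spelling C56BL6, and no age, sex, passage number or culture density. They do not say when the passaged cultures were split, or whether the kept cultures were ever split.

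Fibroblasts that fill their dish stop dividing, a reversible arrest called quiescence or contact inhibition, and splitting them onto new plastic lets them enter the cell cycle again. In arrested cells RB-family proteins and the MuvB core hold the promoters of replication and mitosis genes silent through E2F sites and through CHR elements that work with NF-Y boxes, and cyclin-dependent kinases lift that block. Dense fibroblast cultures also lay down a mature collagen and proteoglycan matrix and secrete complement and chemokines, whereas freshly spread cells build actin stress fibres and activate YAP and SRF.

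The 8 libraries held 27.1 to 34.8 M counts over genes, and 3 counts corresponded to 0.0877 to 0.11 CPM (counts per M, scaled by edgeR's trimmed mean of M values). None of the 14 fibroblast markers was at 0 in all 8 libraries, and they summed to 30878 to 50759 CPM in kept and 18665 to 26886 CPM in passaged libraries. In the test below 8 of them (57.1%) fell and 2 (14.3%) rose in passaged cells, against 30.8% and 29.3% of all genes tested. Lum, Fap and Dpt were at most at 0.585, 0.365 and 1.22 CPM in passaged libraries. Replicate 1 stood apart in both groups. Its libraries held keratin RNA that was at or near 0 in the others: Krt14, a keratin of basal skin keratinocytes, was at 246 CPM in passaged and 419 CPM in kept replicate 1 and at 0.0316 CPM or less in the other 6 libraries, and Krt5 was at 145 and 413 CPM against 0.07 CPM or less. The 12 keratinocyte markers summed to 666 and 1210 CPM in replicate 1 and to 4.74 to 14.1 CPM elsewhere, with the desmosome gene Dsp, Perp and Sfn raised alongside. The rest of the list was low in all 8 libraries, replicate 1 included. Krt1 and Epcam were at 0.035 CPM or less, Cdh1 at 0.328 CPM or less and Krt10 at 0.949 to 1.58 CPM. Krt15, Dsg3 and Trp63 reached at most 2.65, 1.55 and 3.58 CPM. In total 26 genes were at 1 CPM or more in both replicate 1 libraries and under 0.1 CPM in the other 6, and 0 genes showed the opposite. Replicates 1 and 2 expressed Xist at 251 to 470 CPM and replicates 3 and 4 at 0.146 CPM or less, whereas the Y-linked gene Ddx3y was at 93.3 to 112 CPM in replicates 3 and 4 and at 0.0585 CPM or less in the others. The libraries of each pair matched in these genes. Markers of endothelial cells, leukocytes, melanocytes and Schwann cells summed to at most 41.4 CPM, with Cd3e and Sox10 at 0 in all 8 libraries.

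**Figure D1:**
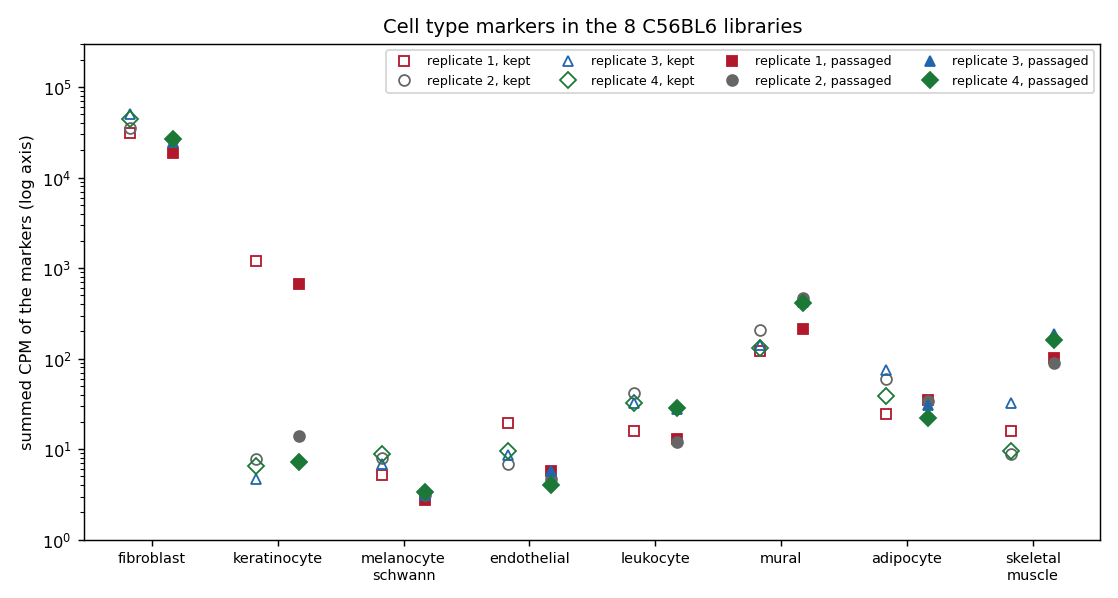
Summed CPM of 8 lists of cell type markers in each of the 8 libraries on a log axis, with open symbols for kept and filled symbols for passaged cultures and a shape and colour for each replicate. Replicate 1 sits at 1210 and 666 CPM for the keratinocyte list, and the other 6 libraries at 4.74 to 14.1 CPM.

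Passaged and kept cultures differed across most of the transcriptome. Of 14415 genes tested with the replicate number as a block, 8667 passed an adjusted p under 0.05 (edgeR quasi-likelihood, Benjamini-Hochberg), which is 60.1% of the genes tested. Of these, 4228 (29.3%) were higher and 4439 (30.8%) lower in passaged cells. At least 2-fold, 1417 genes (9.83%) rose and 1691 (11.7%) fell. The median log2 fold change of all genes was -0.01, a value that the scaling of the libraries largely sets. All changes are relative to the rest of the RNA in each library. Without replicate 1, 9087 of 14574 genes passed (62.4%), 4483 higher and 4604 lower. Of the 8667 genes, 8180 were also called without replicate 1, 0 of them in the opposite direction. The first principal component of the 8 libraries carried 64.4% of the variance and separated passaged from kept, and the second carried 20.3% and separated replicate 1 from the rest. A change in a bulk culture does not tell fewer cells of a type from less RNA per cell. Since so many genes moved, the counts of each gene group are read beside the 29.3% and 30.8% above.

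Genes of the cell division machinery were higher in passaged cells almost without exception. Of 45 genes of mitosis, 44 rose, 42 of them at least 2-fold, with a median log2 fold change of 2.47. Of 40 genes of replication licensing, the replisome and nucleotide supply, 38 rose, with a median of 1.41. Homologous recombination and Fanconi anaemia genes rose in 21 of 23 cases with 0 falls, genes of chromatin assembly in 18 of 21 and cyclins and their kinases in 17 of 20. Mki67 (GRCm39 chr7:135291513-135318090), which encodes the Ki-67 protein of cycling cells, was at 215, 169.7, 218 and 166 CPM in passaged replicates 1 to 4 and at 53.3, 15, 8.59 and 11.6 CPM in kept replicates 1 to 4. Every passaged value lay above every kept value, and the log2 fold change was 3.49 (SE 0.43, edgeR adjusted p = 7.96e-04), an 11.3-fold rise. Kept replicate 1, the culture with keratin RNA, held several times more Mki67 RNA than the other kept cultures. The mitosis list moved least in that pair: its median difference was 1.49 in pair 1 and 2.25, 3.27 and 3.14 in pairs 2 to 4. The part of the keratinocyte-marker RNA in this was not tested. Without replicate 1 the same counts of mitosis and replication genes, 44 of 45 and 38 of 40, rose.

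The promoters of 6 of these genes are shown because the lists' promoters share the motifs through which the arrest machinery acts. They run from 250 bases before to 50 bases after the RefSeq start on GRCm38.p6, read 5′ to 3′ on the gene's strand. Capitals mark CHR elements (TTTGAA), NF-Y boxes (CCAAT) and E2F sites on either strand, and matches may overlap. An E2F site was spelled TTCCCGC, the variant TTGGCGC, the variant TTCGCGC or the variant TTGCCGC. Cdc20, Plk1 and Cdk1 drive mitosis, Ccnb1 encodes cyclin B1, and Mcm5 and Mcm6 are subunits of the replicative helicase.
Cdc20 (chr4:118437294-118437593, minus strand): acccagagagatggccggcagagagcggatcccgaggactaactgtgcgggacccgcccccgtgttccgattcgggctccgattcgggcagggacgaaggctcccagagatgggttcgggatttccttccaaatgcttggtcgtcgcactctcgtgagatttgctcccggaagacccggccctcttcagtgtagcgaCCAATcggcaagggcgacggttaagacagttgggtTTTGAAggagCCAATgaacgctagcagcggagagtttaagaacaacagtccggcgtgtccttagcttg
Plk1 (chr7:122159185-122159484, plus strand): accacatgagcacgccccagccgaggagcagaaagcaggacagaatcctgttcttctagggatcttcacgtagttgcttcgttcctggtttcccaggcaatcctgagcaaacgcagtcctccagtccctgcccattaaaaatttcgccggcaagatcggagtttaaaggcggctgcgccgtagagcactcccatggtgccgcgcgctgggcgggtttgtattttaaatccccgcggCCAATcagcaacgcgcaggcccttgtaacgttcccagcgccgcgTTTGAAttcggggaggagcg
Cdk1 (chr10:69352863-69353162, minus strand): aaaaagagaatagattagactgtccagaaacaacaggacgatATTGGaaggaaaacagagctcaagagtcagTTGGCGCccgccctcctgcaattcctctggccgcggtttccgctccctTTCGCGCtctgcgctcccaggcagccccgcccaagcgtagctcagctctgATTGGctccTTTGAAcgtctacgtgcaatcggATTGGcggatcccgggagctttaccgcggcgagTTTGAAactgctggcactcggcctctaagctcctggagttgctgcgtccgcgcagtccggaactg
Ccnb1 (chr13:100786437-100786736, minus strand): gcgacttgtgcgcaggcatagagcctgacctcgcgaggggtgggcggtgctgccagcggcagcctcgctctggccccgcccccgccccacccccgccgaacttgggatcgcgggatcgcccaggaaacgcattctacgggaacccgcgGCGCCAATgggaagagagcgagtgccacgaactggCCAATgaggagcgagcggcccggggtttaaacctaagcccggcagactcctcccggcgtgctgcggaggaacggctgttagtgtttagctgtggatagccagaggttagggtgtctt
Mcm5 (chr8:75109259-75109558, plus strand): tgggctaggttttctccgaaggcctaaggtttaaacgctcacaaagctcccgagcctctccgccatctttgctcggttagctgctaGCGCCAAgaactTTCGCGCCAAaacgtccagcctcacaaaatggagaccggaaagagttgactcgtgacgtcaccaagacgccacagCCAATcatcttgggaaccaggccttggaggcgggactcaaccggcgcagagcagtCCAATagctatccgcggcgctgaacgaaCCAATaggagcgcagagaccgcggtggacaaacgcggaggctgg
Mcm6 (chr1:128359656-128359955, minus strand): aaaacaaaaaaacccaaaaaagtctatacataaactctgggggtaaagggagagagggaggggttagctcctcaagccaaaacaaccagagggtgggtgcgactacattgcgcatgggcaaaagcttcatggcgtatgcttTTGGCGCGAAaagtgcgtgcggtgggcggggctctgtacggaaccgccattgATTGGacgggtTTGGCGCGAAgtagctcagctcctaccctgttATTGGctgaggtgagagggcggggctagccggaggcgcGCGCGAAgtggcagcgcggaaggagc

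CHR elements were frequent in promoters of mitosis genes and E2F sites in those of replication genes. Cdc20 and Plk1 had 1 CHR match each and 0 E2F matches, Cdk1 had 2 CHR and 2 E2F matches, Ccnb1 had 0 CHR matches and 1 E2F match, and Mcm5 and Mcm6 had 3 and 5 E2F matches and 0 CHR matches. Across the mitosis list, 27 of 38 promoters in the RefSeq table (71.1%) held a CHR match, 28 (73.7%) an NF-Y box and 7 (18.4%) an E2F match. Across the replication list, 17 of 31 promoters (54.8%) held an E2F match and 4 (12.9%) a CHR match. The shares among 10428 promoters of tested genes were 11.7% for CHR, 39% for NF-Y and 17.2% for E2F. Sorted by response instead of by list, CHR matches stood in 19.8% of the 918 promoters of genes that rose at least 2-fold, in 10.8% of the 4018 promoters of genes not called and in 11.5% of the 1135 promoters of genes that fell at least 2-fold. E2F matches stood in 20.4%, 16.9% and 11.7% of the same sets, and NF-Y boxes in 41.8%, 38.1% and 38.8%. A match describes letters and says nothing of binding.

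**Figure D2:**
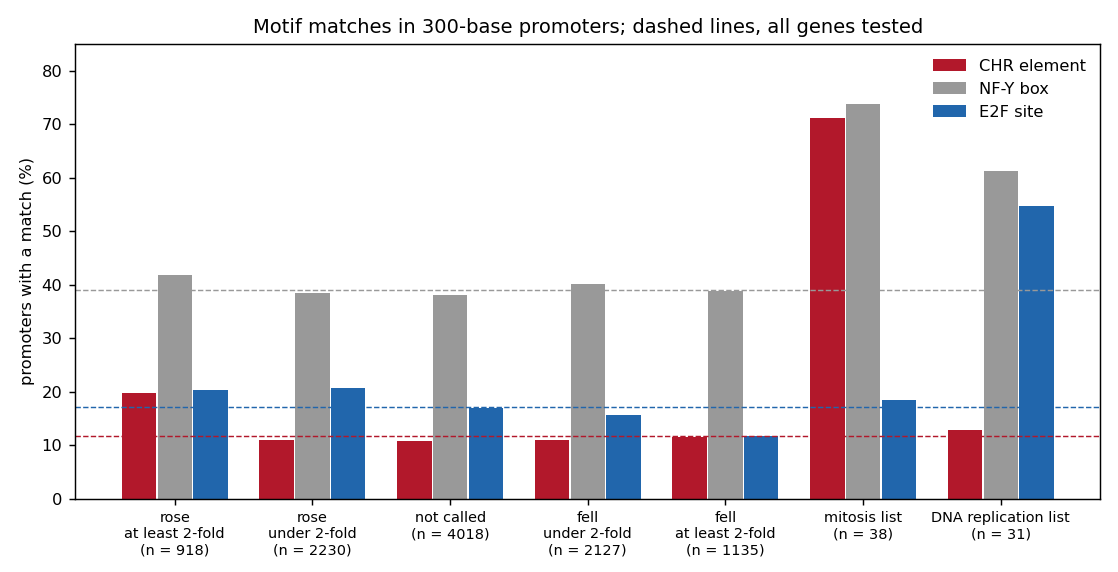
Percent of 300-base promoters with at least 1 match to each of 3 motifs, for genes grouped by response and for the mitosis and DNA replication lists, with dashed lines for all genes tested. CHR matches reach 71.1% in the mitosis list and E2F matches 54.8% in the replication list, against 11.7% and 17.2% of all promoters.

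The genes behind these promoters were higher in passaged cells in every pair, least in pair 1, where the log2 difference of Cdc20 was 0.59 and that of Cdk1 0.96. Mcm5 stood at 78.9, 43.8, 54.1 and 51.6 CPM in passaged replicates 1 to 4 and at 24.5, 7.11, 3.35 and 3.32 CPM in kept replicates 1 to 4. Its log2 fold change was 3.01 (SE 0.42, edgeR adjusted p = 0.00134), with no overlap. Cdk1 was measured at 129, 70.8, 85.5 and 85.9 CPM in passaged and 66.6, 20.4, 13.6 and 17 CPM in kept cultures. The groups barely separated, because kept replicate 1 nearly reached the lowest passaged culture, and the log2 fold change was 1.92 (SE 0.27, edgeR adjusted p = 0.0014). For Ccnb1 the values were 52.5, 41.8, 55.4 and 50.8 CPM against 21.3, 9, 4.71 and 5.53 CPM, a log2 fold change of 2.54 (SE 0.38). Plk1 rose by 2.98, Top2a, the topoisomerase that untangles chromosomes, by 2.83, Rrm2, a ribonucleotide reductase subunit, by 3.11, and the checkpoint kinase Bub1 by 3.37 on the log2 scale. Mcm6 rose by 1.66, and Lmnb1, the nuclear lamina protein, by 2.40. Cdc20 rose by 2.33 with the pairs blocked, but kept replicate 1 overlapped the passaged range and the fit without the block gave adjusted p = 0.111. The members of these 5 lists that fell were Gins4, a helicase cofactor (-1.17), Pttg1, which encodes securin (-0.45), the D-type cyclin Ccnd3 (-0.44) and the chromatin protein Hmgb1 (-0.25), whose count is uncertain because it has pseudogene copies.

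Regulators of these genes moved in both directions. E2f7, an atypical repressor, was at 29, 16.5, 16.5 and 17.5 CPM in passaged and at 5.18, 0.805, 0.537 and 0.379 CPM in kept cultures (log2 fold change 4.07, SE 0.49, edgeR adjusted p = 7.79e-04), and Mybl2, the B-MYB partner of MuvB, rose by 3.54. Rbl2, the p130 protein that fills the repressive complex in arrested cells, fell with a log2 fold change of -1.07, from 40.01 to 69.5 CPM in kept to 24.4 to 31.3 CPM in passaged cultures. Of 20 E2F, RB and MuvB genes 11 rose and 3 fell. Ccnd1, cyclin D1, was at 619, 632, 326 and 390.1 CPM against 178, 246, 93.3 and 92.2 CPM and rose by 1.76 on the log2 scale (SE 0.13, edgeR adjusted p = 1.43e-04). Ccnd2 rose by 0.59 with overlapping groups and had adjusted p = 0.0527 without the block.

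CDK inhibitors other than Cdkn1a were mostly lower in passaged cells. Of 8 measured, 5 fell and 1 rose, with a median log2 fold change of -0.76. Cdkn1b, which encodes p27, the inhibitor of quiescent cells, was at 46.9, 49.4, 66.8 and 73.4 CPM in passaged and 109, 114, 132 and 143 CPM in kept replicates 1 to 4. It was lower in every pair, without overlap (log2 fold change -1.09, SE 0.07, edgeR adjusted p = 1.26e-04). Cdkn2a, the locus of p16 and p19ARF whose RNA forms are counted together here, was at 56.6, 70.4, 34.1 and 44.3 CPM against 107.9, 165, 106 and 110.0 CPM (log2 fold change -1.27, SE 0.12, edgeR adjusted p = 2.86e-04). Its neighbour Cdkn2b, p15, was lower in every pair although kept replicate 1 overlapped the passaged range (log2 fold change -1.21). Cdkn1c, the imprinted p57 gene, was at 3.81, 3.48, 1.02 and 1.8 CPM against 3.37, 54.1, 15.6 and 15.3 CPM. It was lower in pairs 2 to 4 but slightly higher in pair 1, and its call (log2 fold change -2.77, edgeR adjusted p = 0.0168) was lost when pair 2, 3 or 4 was left out (adjusted p = 0.0806, 0.0683 and 0.0751). Cdkn1a, the p53 target p21, was at 318, 409, 329 and 385 CPM against 304, 556, 403 and 367 CPM and did not pass (log2 fold change -0.15, SE 0.11, edgeR adjusted p = 0.286). Cdkn3, a phosphatase of the mitotic programme that the list also holds, rose by 1.45.

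Most genes of growth arrest were lower in passaged cells, and p53 targets did not move one way. Of 30 growth arrest and FOXO target genes, 20 fell and 2 rose, with a median log2 fold change of -0.94. Gas1, named for its expression in growth-arrested fibroblasts, was at 13.5, 10.6, 30.4 and 26.3 CPM in passaged and 104, 348, 322 and 367 CPM in kept cultures, a log2 fold change of -3.78 (SE 0.34, edgeR adjusted p = 2.83e-04). Kept replicate 1 again lay towards the passaged level, though the groups did not overlap. Sesn3, a FOXO-induced sestrin, had a log2 fold change of -2.71. Among 29 p53 targets 9 rose, 10 fell and the median was 0.03. Gdf15, a stress-induced secreted factor, rose by 3.36, Mdm2 rose by 0.62, Sesn1 fell with -1.66, and Ccng1 had a log2 fold change of 0.35 that did not pass (adjusted p = 0.0886, and 0.0483 without replicate 2).

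**Figure D3:**
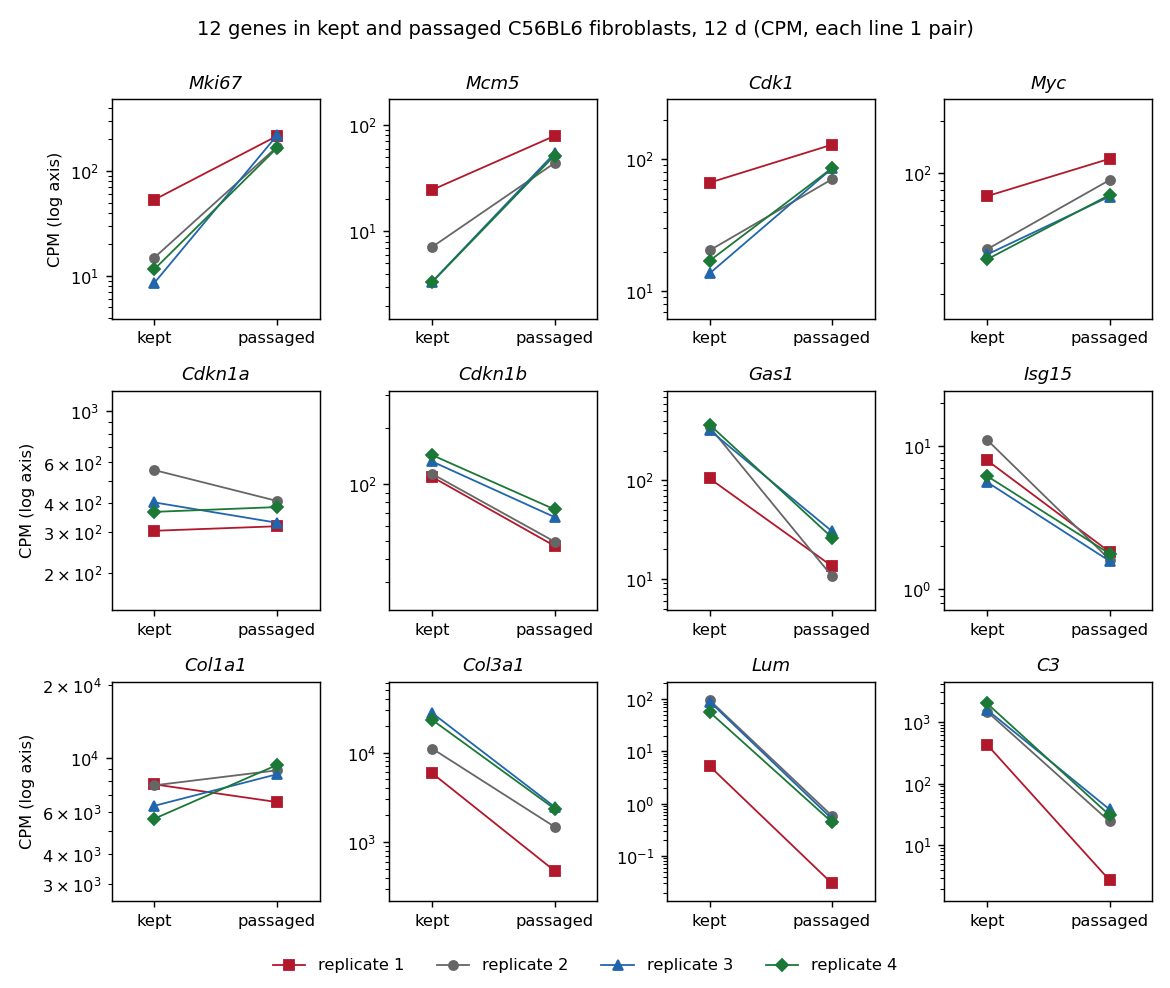
CPM of 12 genes on log axes that differ between panels, with each line joining the kept and the passaged library of 1 pair. Mki67, Mcm5, Cdk1 and Myc are higher in passaged cultures in all 4 pairs, Cdkn1b, Gas1, Isg15, Col3a1, Lum and C3 are lower in all 4, and Cdkn1a and Col1a1 cross. Replicate 1 (red squares) is the highest kept culture for Mki67, Mcm5, Cdk1 and Myc and the lowest for Gas1, Lum and C3.

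Most genes of biosynthesis rose. Myc was at 121, 91, 73.1 and 74.7 CPM in passaged and 73.4, 36.2, 33.8 and 31.7 CPM in kept cultures, higher in every pair although kept replicate 1 overlapped the passaged range (log2 fold change 1.10, SE 0.11, edgeR adjusted p = 3.92e-04). Of 30 MYC and ribosome biogenesis genes 25 rose and 3 fell (median 0.95), and the 3 that fell were the MYC antagonists Mxi1 (-1.10), Mxd1 and Mxd4. Rrp12, which exports ribosome precursors, rose by 1.76. Of 26 genes of the ATF4 pathway, serine and one-carbon supply and amino acid uptake, 19 rose and 0 fell (median 1.13). They included Phgdh, the entry enzyme of serine synthesis (2.13), and Slc7a11, the cystine importer (2.38). Nqo1, an NRF2 target, rose by 2.19, whereas metallothionein Mt2 fell from 29.2 to 84.0 CPM in kept to 0.685 to 3.33 CPM in passaged cultures. The 31 antioxidant genes as a whole split 13 up and 12 down.

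The matrix programme changed its composition. Among 42 matrix glycoproteins, proteoglycans and elastic fibre genes 25 fell, 22 of them at least 2-fold, and 8 rose (median -1.23). Lum (GRCm39 chr10:97400990-97408565), the collagen-binding proteoglycan lumican, was at 0.0298, 0.585, 0.511 and 0.442 CPM in passaged and 5.24, 95.6, 90.0 and 56.6 CPM in kept cultures. It was lower in every pair without overlap, and replicate 1 held the least in both groups, with 1 count in the passaged library (log2 fold change -7.28, SE 0.12, edgeR adjusted p = 7.23e-06). Decorin, Dcn, stood at 0.983, 25, 12.9 and 9.65 CPM against 125, 548, 1151 and 683 CPM (log2 fold change -5.93, SE 0.45, edgeR adjusted p = 1.71e-04). Mfap4, of elastic fibres, had a log2 fold change of -7.05. The perlecan gene Hspg2 was among the 8 that rose (1.39). Among the 21 listed collagens, those that rose were Col7a1, of anchoring fibrils (3.28), and the basement membrane chains Col4a1 (1.27), Col4a2, Col4a5 and Col4a6. Col18a1, also of basement membranes, fell (-1.38). The cartilage collagen Col2a1 was not in that list and rose by 5.41. Of the 21 listed collagens 5 rose and 7 fell, and without replicate 1 the counts were 8 and 8. Col3a1, of reticular fibrils, was at 477, 1481, 2476 and 2355 CPM against 5886, 11081, 27731 and 23211 CPM (log2 fold change -3.33, SE 0.19, edgeR adjusted p = 8.57e-05), and Col6a2 fell with -2.72. Col1a1, the main fibril chain, was at 6566, 8883, 8559 and 9349 CPM against 7774, 7703, 6338 and 5606 CPM. It was lower in pair 1 and higher in pairs 2 to 4 and did not pass (log2 fold change 0.28, edgeR adjusted p = 0.25, and 0.0307 without replicate 1). Among 13 matrix metalloproteinases and their TIMP inhibitors, 7 fell and 2 rose, and Mmp3, stromelysin, fell from 0.455 to 2.21 CPM to 0.204 CPM or less.

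Actin and YAP target genes were higher in passaged cells. Of 24 contractile and SRF target genes 17 rose and 2 fell (median 0.76), and of 25 YAP and TEAD genes 17 rose and 4 fell (median 0.51). Acta2, smooth muscle actin of myofibroblasts, was nearly constant in passaged cultures, at 6106, 6142, 5976 and 6242 CPM, and ranged widely in kept ones, at 5099, 2606, 2160 and 1723 CPM. The groups did not overlap (log2 fold change 1.21, SE 0.27, edgeR adjusted p = 0.0087). Ccn2, a YAP target, was at 1770, 2024, 1573 and 1432 CPM against 1047, 382, 546 and 237 CPM (log2 fold change 1.83, SE 0.32, edgeR adjusted p = 0.00329). The related Ccn1 had a log2 fold change of 0.42 that did not pass (adjusted p = 0.115, and 0.0115 without replicate 1). Ankrd1 rose by 2.23 and non-muscle myosin Myh9 by 1.24, while the collagen-binding integrin Itga11 fell with -1.87. In the AP-1 and immediate early list 12 of 25 rose and 4 fell, led by the ERK phosphatase Dusp4 (3.56). Markers of pericytes and smooth muscle moved in both directions: 4 of 7 tested rose, including Cspg4 (2.49, adjusted p = 0.0749 without the block), Mcam (2.07) and Myh11 (1.83), and 2 fell. Those that fell were Notch3, at 43.7 to 67.2 CPM in kept and 19.7 to 42.4 CPM in passaged cultures, and Abcc9. Abcc9 was at 0.102 to 1.9 CPM in kept and 0.365 CPM or less in passaged cultures. Rgs5 was at 0.632 to 15.3 CPM in kept and 0.745 to 1.57 CPM in passaged cultures. The 9 markers summed to 216 to 467 CPM in passaged and 122 to 207 CPM in kept libraries, and their part in the result was not tested.

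Complement, chemokine and interferon genes were lower in passaged cells. Of 16 complement genes 14 fell and 2 rose, with a median log2 fold change of -4.04. C3 (GRCm39 chr17:57510970-57535136), the central component, was at 2.74, 24.4, 38.2 and 30.8 CPM in passaged and 425, 1456, 1559 and 1977 CPM in kept cultures. The lowest kept value was more than 10 times the highest passaged one (log2 fold change -6.08, SE 0.34, edgeR adjusted p = 7.84e-05). Cfb, factor B of the alternative pathway, had 2 counts over the 4 passaged libraries, a ratio of kept to passaged of 195 (95% Poisson interval 53.9 to 1608, counting error only). The exception with the larger change was Masp1, a lectin pathway protease, which rose by 1.16 but lost its call without replicate 2, 3 or 4 (adjusted p = 0.0654, 0.0628 and 0.073). Of 23 cytokines, chemokines and receptors, 14 fell and 4 rose (median -2.11). Cxcl12, which attracts leukocytes and progenitors, was at 342, 420.2, 241 and 281 CPM against 1117, 3135, 4157 and 4320 CPM (log2 fold change -3.18, SE 0.44, edgeR adjusted p = 0.00124). The alarmin Il33 had a log2 fold change of -6.36 and the eotaxin Ccl11 of -5.89. Csf1, the macrophage growth factor, rose by 1.94. Il6 was at 2.89, 20.6, 42.2 and 33.4 CPM against 4.97, 20.1, 42 and 43.1 CPM, differing more between animals than between groups, and did not pass (log2 fold change -0.24, edgeR adjusted p = 0.184).

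Interferon-stimulated genes fell in 22 of 24 cases and rose in 0, with a median log2 fold change of -1.93. Isg15, a ubiquitin-like effector, was at 1.82, 1.61, 1.57 and 1.77 CPM in passaged and 7.93, 11, 5.59 and 6.16 CPM in kept cultures, without overlap (log2 fold change -2.14, SE 0.21, edgeR adjusted p = 3.53e-04). Oasl2 had -2.77 and the nucleic acid sensor Zbp1 -3.31. These genes were at low levels in kept cultures too, with 6 of the 30 listed not tested for low counts. MHC class I presentation genes fell in 11 of 16 cases and rose in 0, including H2-T23 (-2.02) and the immunoproteasome subunit Psmb9 (-3.26). Of 11 leukocyte markers 4 were at 0 in all 8 libraries, among them Cd3e, and Ptprc was at 0.149 CPM or less. Of the 4 tested, Lyz2, lysozyme, fell from 4.7 to 27.7 CPM in kept to 0.804 to 2.72 CPM in passaged cultures, and Cd14 from 3.75 to 7.62 CPM to 1.05 to 3.04 CPM. Csf1r rose, at 4.43 to 8.03 CPM in kept and 5.64 to 22.9 CPM in passaged cultures. The list summed to 15.9 to 41.4 CPM in kept and 12.0 to 28.5 CPM in passaged libraries, and its part in the immune results was not tested.

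**Figure D4:**
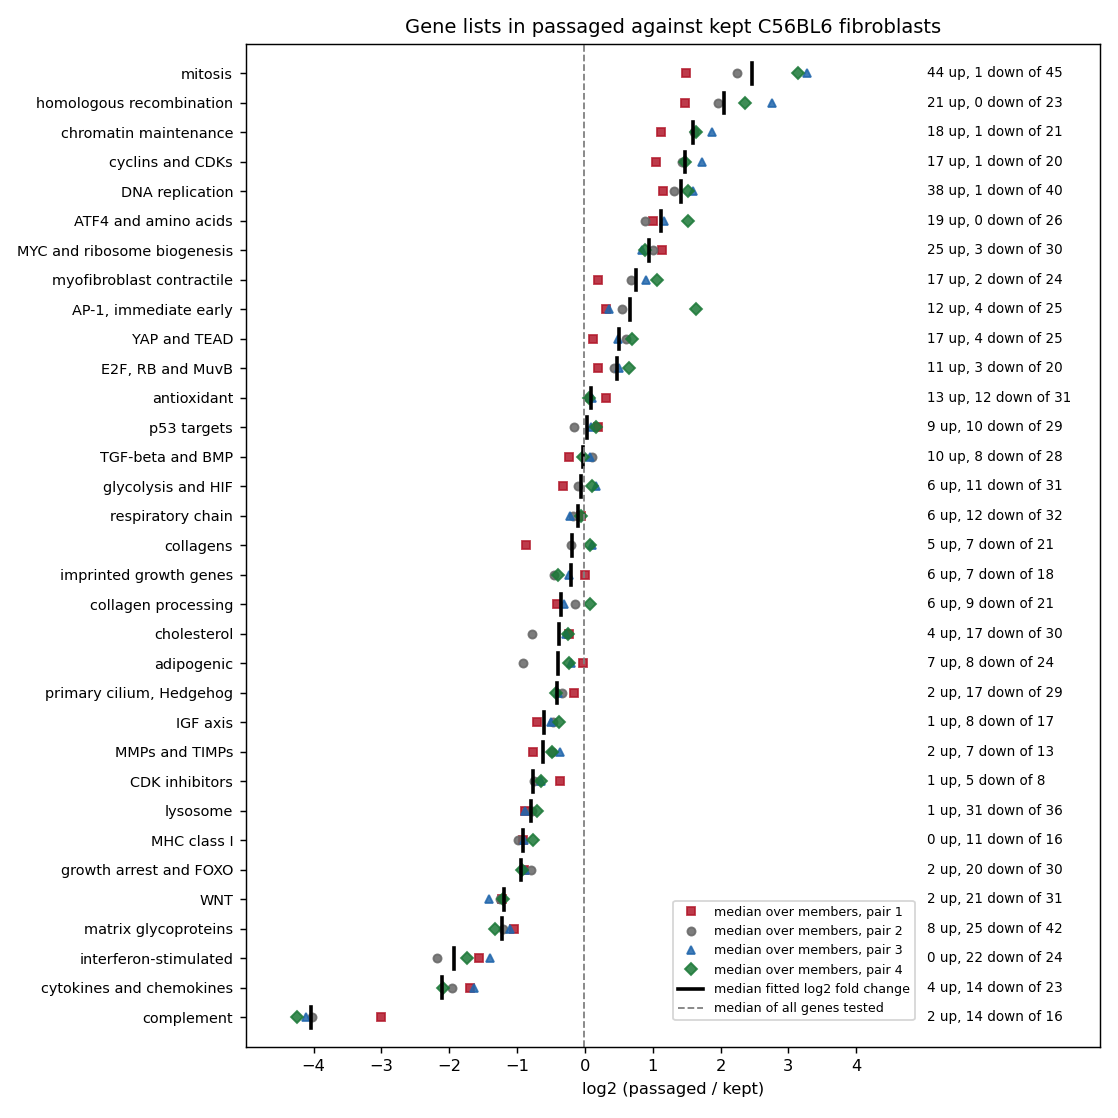
Median log2 ratio of passaged to kept for 33 gene lists, by pair (coloured symbols) and in the fitted model (black bars), with the number of members that rose and fell at the right. Mitosis lies at the top with 2.47 and complement at the bottom with -4.04, and the dashed line is the median of all genes tested, -0.01.

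Lysosomal, WNT and lipid genes added further shifts. Lysosomal genes fell in 31 of 36 cases and rose in 1, by less than the groups above (median -0.80), with cathepsin Ctsf at -2.12. Of 31 WNT genes 21 fell and 2 rose (median -1.20): Rspo1, which amplifies WNT signals, had a log2 fold change of -6.67, whereas the WNT-responsive factor Lef1 rose by 3.51 from 0.749 CPM or less. Of 30 cholesterol genes 17 fell and 4 rose (median -0.39). Among those that fell were the LXR targets Abca1, a cholesterol exporter (-1.81), and Mylip, a ubiquitin ligase (-2.13). Ndrg1, a hypoxia-responsive gene, fell with -3.59, in a glycolysis and HIF list that split 6 up and 11 down of 31. In the IGF axis 8 of 17 genes fell and 1 rose, with Igfbp3 at -4.62 and the receptor Igf1r up by 0.65. The BMP target Id1 rose by 3.03.

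Imprinted growth genes moved in both directions, 6 up and 7 down of 18. H19 (GRCm39 chr7:142129262-142131886), a maternally expressed RNA that limits growth, was at 26.4, 2.22, 19.8 and 5.57 CPM in passaged and 94.7, 854, 1486 and 954 CPM in kept cultures. All passaged values lay below all kept values, but pair 1 fell far less than pairs 2 to 4 (log2 fold change -6.25, SE 1.28, edgeR adjusted p = 0.00623). Its neighbour Igf2, a growth factor, was at 0.511 CPM or less in passaged and 0.21 to 3.54 CPM in kept cultures, lower in every pair with overlapping groups (log2 fold change -3.65). Dio3, which inactivates thyroid hormone, fell with -3.87, and the amino acid transporter Slc38a4 rose by 2.36.

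The 12 genes that fell most, among those at 5 CPM or more in the kept group and lower in all 4 pairs, were Egfl6, Wfdc17, Saa3, Cfd, Adipoq, Vtn, Car3, Chrdl2, Chl1, Dpt, Steap4 and Adamts15. Egfl6 (GRCm39 chrX:165306003-165368716), a secreted matrix protein, was at 0, 0, 0.0365 and 0.238 CPM in passaged and 41.9, 96.6, 253 and 205 CPM in kept cultures (log2 fold change -11.04, SE 0.34, edgeR adjusted p = 2.61e-05). Saa3, an acute-phase serum amyloid, was at 0, 0.205, 1.17 and 0.102 CPM against 11.5, 115, 1031 and 559.6 CPM, with kept replicate 1 lowest. Wfdc17 was at 0 in all 4 passaged libraries and at 3.92, 4.1, 8.09 and 11.3 CPM in kept ones, at least 290-fold lower against a floor of 3 counts over the passaged group. Cfd, adipsin, had 1 count over the passaged libraries and 9.81, 15.8, 24.2 and 7.77 CPM in kept ones, a ratio of 1800 (95% Poisson interval 323 to 71080, counting error only). Adipoq, adiponectin, also had 1 passaged count and a ratio of 1042 (187 to 41160). Pparg, the adipogenic factor, in contrast rose by 1.34. The 7 adipocyte markers summed to 24.5 to 75.5 CPM in kept and 22.3 to 34.6 CPM in passaged libraries, Lep was at 0.0341 CPM or less, and the part of such cells in the result was not tested. Dpt, dermatopontin of the dermal matrix, was at 0.477, 0.38, 0.475 and 1.22 CPM against 161, 239, 302 and 256 CPM (log2 fold change -8.56). Car3, Vtn and Chrdl2 each had 2 counts or fewer over the passaged libraries, and Chl1, Steap4 and Adamts15 had log2 fold changes of -8.63, -8.41 and -8.17. Chl1 was at 0.0894 CPM or less in passaged and at 0.647, 1.23, 37.8 and 29.7 CPM in kept replicates 1 to 4. Its pair differences were -2.20, -4.31, -8.54 and -8.84, so replicates 3 and 4 carried most of its fall.

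The 12 that rose most by the same rule were Col2a1, Tmem171, Kcnf1, Acta1, E2f7, Ctnnd2, Slc6a12, Fgd3, Cobl, Prkg2, Nes and Kcnmb1. Col2a1 (GRCm39 chr15:97873483-97902576), the collagen of cartilage, was at 359.8, 138, 424 and 326 CPM in passaged and 8.65, 11.5, 4.55 and 4.58 CPM in kept cultures, a log2 fold change of 5.41 (SE 0.53, edgeR adjusted p = 3.71e-04). The lowest passaged culture held more than 10 times more than the highest kept one. Nes, the intermediate filament nestin, was at 186, 167, 103 and 97.9 CPM against 16.7, 12.4, 7.05 and 5.53 CPM (log2 fold change 3.802, SE 0.12, edgeR adjusted p = 2.83e-05). Acta1, skeletal actin and an SRF target, was at 88.1, 83.9, 145 and 149 CPM against 7.15, 5.71, 6.7 and 4.8 CPM (log2 fold change 4.22). It has close actin relatives, so its count is uncertain, and it made up most of the sum of the 9 skeletal muscle markers in passaged libraries, 88.6 to 188 CPM against 8.96 to 32.2 CPM in kept ones. Of the other markers, Des rose (1.68 to 23.2 CPM in kept and 3.54 to 41.8 CPM in passaged cultures) and Tnnt3 fell (1.54 to 2.28 against 0.51 to 1.2 CPM). The remaining 6, Myod1, Myog, Pax7, Myf5, Myf6 and Ckm, were at 0.035 CPM or less, and the part of such cells in the result was not tested. Tmem171, Kcnf1, Ctnnd2, Slc6a12, Cobl, Prkg2 and Kcnmb1 had log2 fold changes of 5.35, 4.85, 4.01, 3.93, 3.83, 3.83 and 3.76. Fgd3, a CDC42 exchange factor, was at 191, 71.8, 35 and 34.8 CPM against 69.8, 2.1, 1.64 and 0.979 CPM. Replicate 1 was highest in both groups, so the groups overlapped and the adjusted p without the block was 0.224 (0.00362 with it).

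Wild mouse fibroblasts gave the same comparison in 8 libraries of 23.1 to 33.7 M counts, with other animals and other controls. A test of the difference between the C56BL6 and the wild change, over all 16 libraries with each animal as a block, called 615 of 15316 genes (4.02%): 233 (1.52%) with a more positive log2 change in C56BL6 and 382 (2.49%) with a more negative one. The count depended on single pairs: it was 342, 248, 272 and 16 when replicate 1, 2, 3 or 4 was left out of both populations, and 2 without the block. Wild replicates 1 and 4 had 0 genes at 1 CPM or more in both libraries of one animal and at 0 counts in both of the other, as had C56BL6 replicates 3 and 4, against 32 to 87 for the other wild pairs and 5 to 21 for the other C56BL6 pairs. Keratinocyte markers summed to at most 14 CPM in wild libraries.

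The cell division lists were called for this difference at about the 4.02% of all genes. Of 45 mitosis genes 1 was called (2.22%), Pttg1 (-1.97, SE 0.40, edgeR adjusted p = 0.0299, and 0.0783 to 0.111 when any 1 replicate was left out), and the list medians were 2.47 in C56BL6 and 2.41 in wild cells. Of 40 replication genes 1 was called (2.5%), with medians of 1.41 and 1.42. Cholesterol genes were called most often: 12 of 30 changed less or fell more in C56BL6, with medians of -0.39 and 0.49, but 6 were called without replicate 1 and 0 without replicate 4. Complement genes were called in 6 of 16 cases, all with the more negative change in C56BL6 (medians -4.04 and -2.63), with 4 without replicate 1 and 2 without replicate 4. C3 differed by -2.53 (SE 0.45, edgeR adjusted p = 0.0199), with adjusted p = 0.0508, 0.0405, 0.0522 and 0.154 without replicate 1, 2, 3 or 4. Among CDK inhibitors Cdkn2a (-0.95), Cdkn2b (-1.26) and Cdkn1a (-0.98) were called, each with the more negative change in C56BL6. Of the 3, Cdkn2a alone was called without replicate 1 and 0 were without replicate 4. Cdkn1a also missed with library size only (adjusted p = 0.0824). In wild cells alone Cdkn1a had a log2 fold change of 0.82 and Cdkn2a of -0.34.

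**Figure D5:**
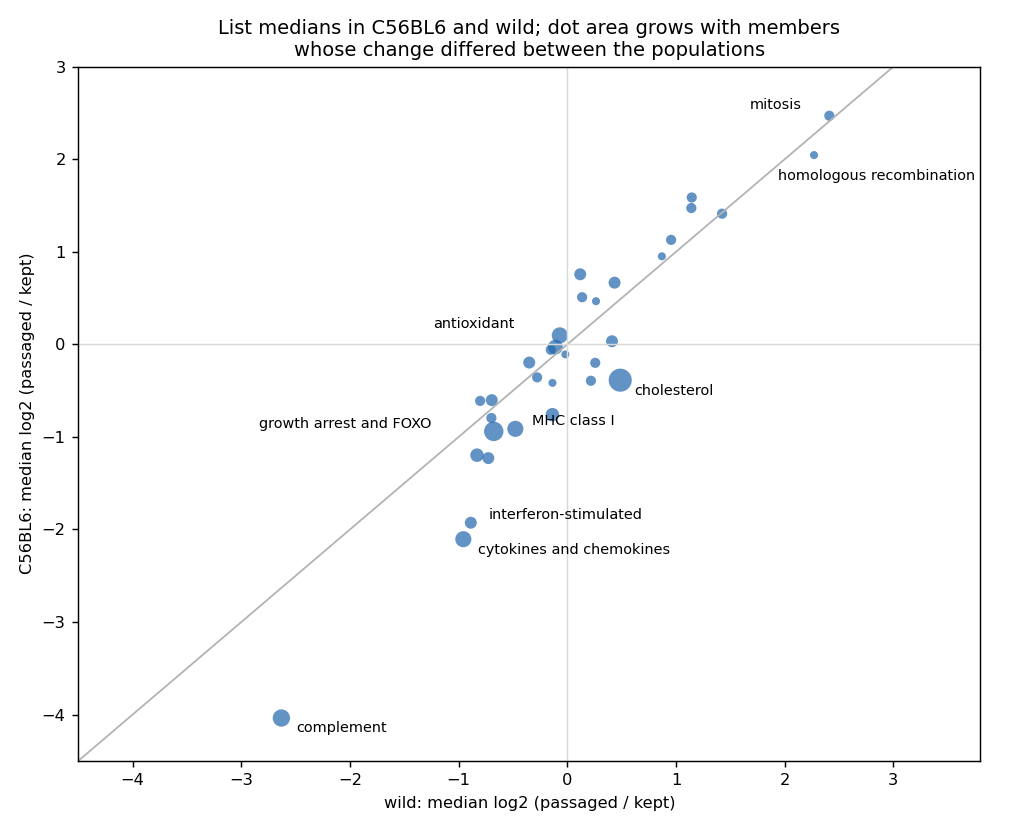
Median log2 ratio of passaged to kept for 33 gene lists in C56BL6 (vertical) against wild fibroblasts (horizontal), with the line of equality and dots that grow with the number of members whose change differed between the populations. Mitosis lies on the line at 2.41 and 2.47, and cholesterol, the list with 12 such members, lies at 0.49 in wild and -0.39 in C56BL6.

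Single genes with the largest differences were Syt13, Egfl6 and Sectm1a on the lower side and Kcnmb1, Col8a2 and Nes on the higher side. Nes rose in C56BL6 and had a log2 fold change of 0.62 (SE 0.34) in wild cells, at 31.9, 47.3, 178 and 67.4 CPM in wild passaged and 25.4, 24.9, 54.3 and 93.8 CPM in wild kept replicates 1 to 4 (difference 3.17, SE 0.41, edgeR adjusted p = 0.00699). It was higher in passaged cells in wild pairs 1 to 3 and lower in pair 4. Kcnmb1, a potassium channel subunit of smooth muscle, rose in C56BL6 and in wild cells was detected only in replicates 1 and 4, at 6.48 and 14.9 CPM in passaged and 13.3 and 30.2 CPM in kept libraries (difference 4.78, SE 0.26, edgeR adjusted p = 8.82e-04). Syt13, a synaptotagmin, fell in C56BL6 and rose in wild cells, where replicates 1 and 4 also held most of the RNA (difference -5.78, SE 0.99, edgeR adjusted p = 0.0177). In C56BL6, Syt13 was at 0.924, 1.23, 12.3 and 7.30 CPM in passaged and 1.40, 73.5, 105 and 139 CPM in kept replicates 1 to 4. The groups overlapped, and pair 1 fell least (-0.56). Egfl6 fell in both populations, by more in C56BL6 (difference of log2 fold changes -5.41, SE 0.63, edgeR adjusted p = 0.00472). Sectm1a fell in C56BL6 and had a log2 fold change of -1.86 in wild cells that did not pass (difference -5.35). Col8a2 fell less in C56BL6 than in wild cells (3.95). Without replicate 4, Syt13, Sectm1a, Kcnmb1 and Nes no longer passed (adjusted p = 0.195, 0.313, 0.062 and 0.062), and without the block 0 of the 6 did. Sectm1a was also lost without replicate 1 or 3 (adjusted p = 0.14 and 0.106). Of the 33 genes named in the text that were called for this difference, 3 (Egfl6, Col8a2 and Dpt) were called without replicate 4.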

How the data were processed

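RNA of 8 C56BL6 and 8 wild fibroblast cultures was read from the authors' raw counts per gene. Per the file headers, the deposited counts were made with featureCounts 2.0.3 on GRCm39 with Ensembl release 108, with no option for strand, read pairs or overlapping genes, so antisense, overlapping and near-identical genes are uncertain. Per the submitters' processing notes, Trim Galore and HISAT2 were used, and per the labels' protocols the libraries were stranded mRNA. The gene length deposited beside the counts is another value by the authors and entered no test. Of 56980 gene identifiers, 56236 matched a symbol.

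The main test was edgeR 4.0.16 (filterByExpr, TMM, glmQLFit, glmQLFTest, R 4.3.3) with the replicate number as a block and Benjamini-Hochberg adjustment over all genes. Values are CPM on that scaling, and per-pair differences use a prior count of 2. SE is the log2 fold change over the root of its F value. The pairing comes from the animal code in the library names. Same-numbered libraries deviated together (correlations 0.493 to 0.706, different numbers -0.573 to 0.507). Replicate libraries of a group differed by 10.6 to 273 times sampling noise (chi-square per degree of freedom, 12 pairs), so none was a repeat deposit. Nothing else in the labels says how the cultures were grown. With the block, the p-values of the main test set the passaged to kept difference against its spread over these animals' pairs.

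Genes named were a panel of cell cycle, secretory and matrix genes, the 12 that rose and 12 that fell most, up to 3 called members per list and direction, and 6 genes of the difference test; the keratins and Dsp, Perp, Sfn, Xist and Ddx3y, and the call of other list members by name, were named after their values were seen. Some genes under this rule are not reported here. The comparison, the genes and all lists were chosen with earlier results of these data known. Alternatives were DESeq2 1.42.0, other scalings, no filter, no block, all 4 C56BL6 groups at 12 d in 1 fit, and each pair left out. A run on simulated counts, with far fewer changed genes than were called here, served only as a check of the code. Promoters came from the RefSeq table for GRCm38.p6, which matched 10428 of 14415 tested genes by symbol and was not used with GRCm39 coordinates.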

Additional observations from a re-analysis of the deposited data

Results flagged for a closer look

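Among 114 named genes, 228 groups of 4 libraries were tested for a library far from the others, and 28 had one. Chance gives about 1 such group in 20 for unrelated genes. The 28 cannot be set against that rate, because the genes were selected and many moved together. Kept replicate 1 accounted for 14 of the 28. It was the highest kept library for Mki67 (53.3 CPM), Cdk1 (66.6), Myc (73.4), Tmem171 (0.613), E2f7 (5.18), Fgd3 (69.8), Kcnmb1 (1.26), Col6a2 (2264), Myh9 (1920), Ankrd1 (108.4) and Cdc20 (66.2 CPM), and the lowest for Cdkn2b (33.03 CPM), Gins4 (31.8) and Gas1 (104 CPM). Passaged replicate 1 was the highest of its group for E2f7 (28.99 CPM), Kcnmb1 (16.1), Col7a1 (225) and Mcm6 (129 CPM). These are the libraries with keratinocyte-marker RNA, whose part in the values was not tested. Kept replicate 2 was highest for Cdkn2a (165 CPM), Mdm2 (152) and Mcam (66.6 CPM). In the passaged group, replicate 4 was highest for Egfl6 (0.238 CPM), Chrdl2 (0.034) and Dpt (1.22 CPM), replicate 3 for Cfd (0.0365), Car3 (0.073) and Sectm1a (0.219 CPM), and replicate 2 for Adipoq (0.0293 CPM), most of them at 1 or a few counts.

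For 33 named genes the passage effect differed between C56BL6 and wild fibroblasts in the test over 16 libraries. The differences in log2 fold change, C56BL6 minus wild, were lowest for Syt13 (-5.78), Egfl6 (-5.41) and Sectm1a (-5.35). Dio3 (-4.96), Adamts15 (-4.70), Chl1 (-4.38), Steap4 (-4.05) and Dpt (-3.01) followed. Immune genes had Il33 (-3.58), Cfb (-3.56), C3 (-2.53) and Zbp1 (-2.16), of which the fitted value of Cfb rests on 2 passaged counts and is no bound. Cell cycle and arrest genes had Gas1 (-2.03), Pttg1 (-1.97), Sesn3 (-1.69), Cdkn2b (-1.26), Gins4 (-1.15), Cdkn1a (-0.98), Cdkn2a (-0.95) and Sesn1 (-0.77). The differences were above 0 for Kcnmb1 (4.78), Col8a2 (3.95), Nes (3.17), Kcnf1 (3.13), Cspg4 (2.98), Cobl (2.87), Mcam (2.32), Col7a1 (2.25), Dusp4 (2.12), Ankrd1 (2.04), Slc7a11 (1.55), Nqo1 (1.43) and Col4a1 (1.32). Of these 33, 0 were called without the replicate block, 23 without replicate 1, 15 without replicate 2, 20 without replicate 3 and 3 without replicate 4.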

How the results depend on the processing

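The numbers of genes called and of genes called at least 2-fold stayed within 1.5 times under all 10 alternatives: 8666 with RLE size factors, 8554 with library size only, 8812 with no expression filter, 8622 with DESeq2, 7157 without the replicate block, 10312 with all C56BL6 groups in 1 fit, and 6539 to 9087 without each replicate in turn. Of the 8667 genes, 7066 were also called without the block, and 0 were called in the opposite direction under any of the 10. The difference between C56BL6 and wild cells depended on the setting: DESeq2 called 1288 genes, 2 were called without the replicate block (1315 at an unadjusted p under 0.05), and 16 to 342 without each replicate. It was 594 with RLE size factors, 440 with library size only and 721 with no filter. Among 1139 alternative values of 114 named genes, 10 lost and 6 gained a call and 0 changed sign; beside the cases given with the results, Ccng1 passed with DESeq2 and Ccn1 and Ccng1 passed with all groups in 1 fit. Without replicate 1 the list medians of collagens (-0.197 to 0.003), p53 targets (0.033 to -0.032) and glycolysis and HIF (-0.059 to 0.049) changed sign. In the same fit the medians of collagen processing (-0.05), IGF axis (-0.33), WNT (-1.36), cytokines (-1.87) and growth arrest (-0.85) moved by more than the SD over pairs. Depth limits the genes at 3 counts or fewer in passaged libraries, whose folds are bounds or wide intervals. The cause of these differences was not tested.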
